A study of Rattus norvegicus with 3 samples.

Results

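The genes described here are Nfe2l2, which encodes the transcription factor Nrf2, and 9 genes of the antioxidant programme and thioredoxin system that it serves: Nqo1, Gclc, Gclm, Gsr, Srxn1, Txn1, Txnrd1, Prdx1 and Slc7a11. They were taken by gene symbol from the probe-set annotation. Of these 10 genes, 9 had at least 1 probe set (short probes for a transcript, summarised as 1 value) that names no other gene, 13 probe sets in all, among 14217 genes and 20826 probe sets of the array. Prdx1 had only a probe set that it shares with Prdx1l1 in the annotation, so no value is given under its name. RNA came from 3 soft tissues of male Sprague Dawley wild-type rats, 9 weeks old at harvest, with 1 array per tissue. Peri-implant connective tissue (PICT) was taken 4 weeks after a first molar was extracted at 5 weeks of age and a titanium alloy implant was set into its socket. Oral mucosal connective tissue (OMCT) came from the extraction site, also after 4 weeks, with no implant. Periodontal connective tissue (PCT) came from around the upper first molar of rats with no extraction stated. The sample labels give rat throughout, although the series' design text writes mice once for PCT. All were cut out by laser microdissection, and how many animals gave RNA for an array was not stated.

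Nrf2 is held in the cytoplasm by the adaptor Keap1, which passes it to a Cul3 ubiquitin ligase for breakdown. Oxidants and electrophiles modify Keap1, so that Nrf2 builds up, enters the nucleus, pairs with small Maf proteins and binds antioxidant response elements near its target genes. Because this control acts on the protein, the mRNA of Nfe2l2 does not measure Nrf2 activity. The targets import cystine (Slc7a11), build glutathione from cysteine (Gclc and Gclm), keep glutathione and thioredoxin reduced with NADPH (Gsr and Txnrd1), repair peroxiredoxins (Srxn1) and reduce quinones (Nqo1). Nrf2 genes are known to be active in stratified epithelium, and Slc7a11 also in activated phagocytes.

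The promoters of 3 members are shown because these genes stood apart in the data given further on: Slc7a11 is the only member counted as 2-fold different between tissues relative to the array medians, Srxn1 came next in PICT minus OMCT, and Gclm was the only member lower in PICT than in OMCT. Each runs 5′ to 3′ on the gene's strand, from 250 bases before the RefSeq start to 20 after it, and capitals mark matches to an antioxidant response element as spelled below.
Slc7a11, GRCr8 chr2:136668245-136668514, minus strand: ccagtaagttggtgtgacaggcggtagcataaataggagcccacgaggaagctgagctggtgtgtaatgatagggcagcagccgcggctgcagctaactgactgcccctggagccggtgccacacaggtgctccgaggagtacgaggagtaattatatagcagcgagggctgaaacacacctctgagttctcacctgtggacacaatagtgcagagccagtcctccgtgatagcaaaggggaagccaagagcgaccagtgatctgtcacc
Srxn1, GRCr8 chr3:161064562-161064831, plus strand: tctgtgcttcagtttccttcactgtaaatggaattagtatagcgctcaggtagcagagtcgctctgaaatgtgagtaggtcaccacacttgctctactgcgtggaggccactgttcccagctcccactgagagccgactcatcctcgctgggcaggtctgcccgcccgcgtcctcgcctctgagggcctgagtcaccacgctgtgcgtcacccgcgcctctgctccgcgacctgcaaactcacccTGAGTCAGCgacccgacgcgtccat
Gclm, GRCr8 chr2:213031885-213032154, plus strand: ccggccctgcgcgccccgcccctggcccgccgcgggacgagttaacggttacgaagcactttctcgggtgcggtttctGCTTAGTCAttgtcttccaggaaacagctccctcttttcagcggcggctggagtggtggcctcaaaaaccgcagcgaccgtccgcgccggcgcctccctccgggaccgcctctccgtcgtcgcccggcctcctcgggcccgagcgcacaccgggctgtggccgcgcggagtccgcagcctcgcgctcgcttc

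Windows of 300 bases (250 before the start and 50 after it) were given by RefSeq for 9 of the 10 members, 10 windows in all. They were searched on both strands for TGACNNNGC, the core of the element, and for TGANTCAGC, a form that holds the AP-1 core TGANTCA. TGACNNNGC was found in 4 of the 10 member windows (Gclm, Nfe2l2, Prdx1 and 1 of the windows of Txnrd1), against 12.1% of 33469 windows of the same length. TGANTCAGC was found in 2 member windows, Srxn1 and Prdx1, against 1.11% of windows. The shorter TGANTCA was in the same 2 members and in 7.33% of windows. In Gclm the match reads TGACTAAGC on the opposite strand and begins 172 bases before the start; in Srxn1 it reads TGAGTCAGC and begins 5 bases before the start. In Prdx1 the letters TGACTCAGC match both spellings. The window of Slc7a11 holds neither spelling, which says nothing of sequence outside it. A match is a string of letters here, and binding was not measured.

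All values are deposited intensities on a linear scale, and levels are compared only between arrays within a probe set. The median intensity of all probe sets was 56.5 in PICT, 57.4 in OMCT and 34.3 in PCT. Differences are therefore given as relative log2 differences: log2(intensity + 8.56), with each array's median subtracted, where 8.56 is the 20th percentile of all intensities. Subtracting the medians lowered PICT minus PCT by 0.60 and OMCT minus PCT by 0.62 and raised PICT minus OMCT by 0.02 for every gene, and "as deposited" marks values without it. As deposited, the 9 hybridisation controls had median log2 differences of 0.21 for PICT minus PCT, 0.30 for OMCT minus PCT and -0.08 for PICT minus OMCT. Against PCT these are smaller than the shifts of the array medians. The 2-fold rule counts a gene as higher or lower at a relative difference of 1 or more in size, provided that the brighter of its arrays reached the median of that array. With 1 array per tissue there is no test, SD between animals or p-value, and the number of arrays limits the precision. As a technical yardstick, probe sets of the same gene differed among themselves with an SD of 0.49 in each comparison, over 4525 genes with several. All 13 member probe sets exceeded the highest negative control of each array (8.36 in PICT, 3.60 in OMCT and 5.71 in PCT).

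Markers of epithelium and immune cells were present beside those of connective tissue. Summed over 8 fibroblast markers the intensity was 27724 in PICT, 42826 in OMCT and 21264 in PCT, and over 8 basal keratinocyte markers it was 23376, 25116 and 27196. The 11 measured markers of differentiated oral epithelium summed to 27790 in PICT, 4128 in OMCT and 24427 in PCT. The 8 macrophage markers summed to 2538 in PICT, 4116 in OMCT and 264.8 in PCT, and the 6 measured neutrophil markers to 6566, 1642 and 843. The 3′ to 5′ ratio of the Hk1 controls, a sign of shortened RNA when high, was 1.58 in PICT, 1.97 in OMCT and 2.80 in PCT. In such mixtures, fewer cells of a type and less RNA per cell cannot be told apart.

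Between PICT and PCT, the members lay close to the rest of the array with 1 exception, the cystine transporter Slc7a11, which was far lower in PICT. By the 2-fold rule 0 of 9 measured members were higher and 1 was lower, where 3.98% of all genes were higher and 3.37% lower. The member median was -0.31, against -0.13 over all genes. As deposited, 1 member was higher and 1 lower (14.1% and 0.9% of all genes), and the member median was 0.29 against 0.47. Only Slc7a11 and Gsr differed by more than the probe-set yardstick of 0.49, Gsr at -0.50.

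**Figure D1:**
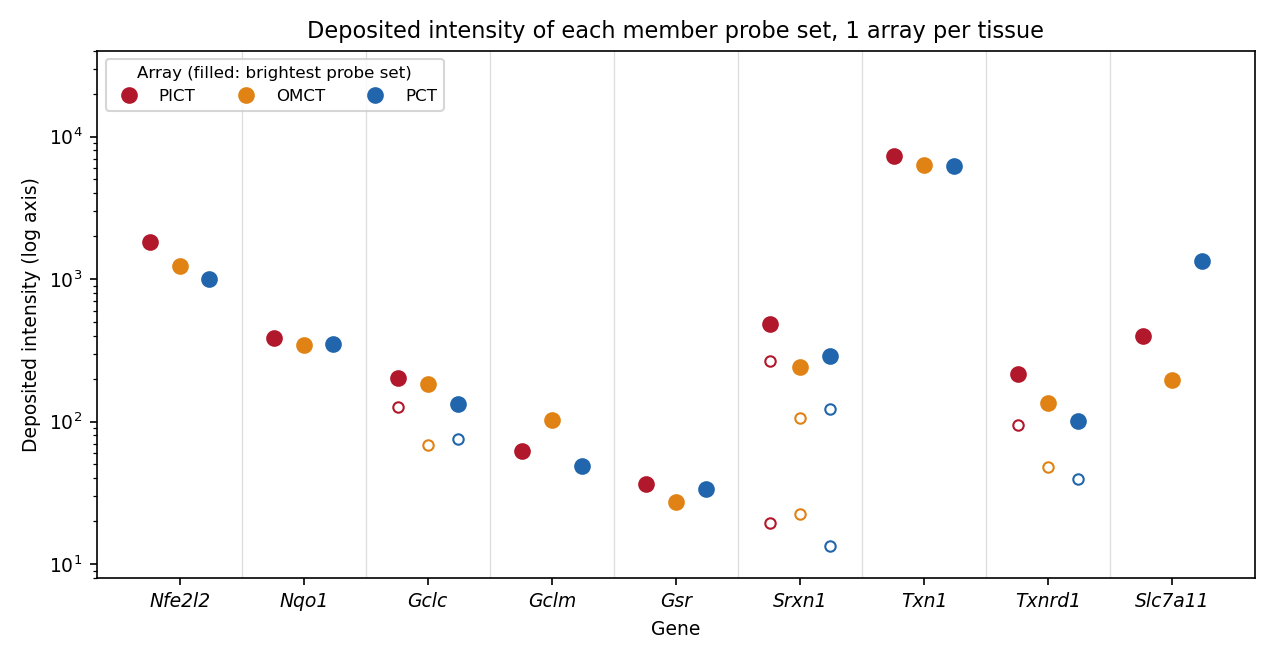
Deposited intensity (log axis) of the 13 probe sets of the 9 measured members, 1 point per array, with PICT left, OMCT in the middle and PCT right; filled points are the brightest probe set of a gene and open points its other probe sets. Slc7a11 is highest in PCT (1333, against 401 in PICT and 194 in OMCT), and Gclm is highest in OMCT (103, against 61.8 in PICT and 48.9 in PCT). The brightest probe sets of the other members are highest in PICT. Relative to the array medians, those of Nqo1, Gclc, Gsr and Txn1 are highest in PCT instead.

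Slc7a11 (probe set 1378133_at) encodes xCT, the light chain of the antiporter that brings cystine into the cell in exchange for glutamate. Its intensity was 401 in PICT, 194 in OMCT and 1333 in PCT. PCT was the highest array and OMCT the lowest, in the same order with and without the array medians subtracted. The relative log2 difference was -2.31 for PICT minus PCT, which placed Slc7a11 32nd from the bottom of 14217 genes. It was -3.35 for OMCT minus PCT, 64th from the bottom. PICT minus OMCT was 1.03, 770th from the top and just past the 2-fold rule. As deposited the differences were -1.71, -2.73 and 1.01. Only 1 probe set names Slc7a11, and its probes have no second set to be checked against. The difference of 1.03 was 0.90, under 2-fold, with a pseudocount at the median of all intensities. Beside it, PCT also had the highest Hk1 ratio, and 3 of the 6 measured osteoblast and bone markers were lower in PICT, 0 higher (summed intensity 702 in PICT, 1540 in OMCT and 935 in PCT; only Phex was at or below the negative controls, in PICT and OMCT). In PICT minus PCT, endothelial markers were lower for 4 of 7 and higher for 0, with summed intensities of 1949 in PICT, 3478 in OMCT and 2194 in PCT and none at or below the negative controls. Macrophage markers were higher for 5 of 8 and neutrophil markers for 4 of 6, with 0 lower in each. Basal keratinocyte markers were lower for 2 of 8 and higher for 0, with Krt15 lowest at -2.90. In OMCT minus PCT, where Slc7a11 differed most, 0 of 7 endothelial markers were higher or lower. There bone markers were higher for 2 of 6 and lower for 2, and differentiated epithelium markers lower for 10 of 11. The part of all these in the Slc7a11 differences was not tested.

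Slc3a2 encodes the heavy chain (4F2hc) that carries xCT to the cell surface. Its intensity was 226 in PICT, 389 in OMCT and 434 in PCT. PCT was again highest, but PICT and not OMCT was lowest. The relative differences were -1.52 for PICT minus PCT, -0.74 for PICT minus OMCT and -0.77 for OMCT minus PCT. As deposited PICT minus PCT was -0.92, and OMCT minus PCT was -0.15, within the yardstick. Cdo1, the dioxygenase that breaks down cysteine, followed the order of Slc7a11 with an intensity of 82.3 in PICT, 43.1 in OMCT and 474 in PCT. Its differences were -3.01 for PICT minus PCT, 0.84 for PICT minus OMCT and -3.85 for OMCT minus PCT.

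Among 9853 genes whose brightest array lay at or above its median, the 3 with the pattern most like Slc7a11, by distance in the plane of PICT minus PCT and OMCT minus PCT over the 3 arrays, were Tent5c, Bcl2l15 and Mcpt1l1. Their distances were 0.20, 0.26 and 0.27 on the log2 scale, and 5 genes lay within 0.5. Tent5c had an intensity of 66.5 in PICT, 22.5 in OMCT and 224.8 in PCT. The likeness depends on the pseudocount: with one at the median of all intensities Bcl2l15 stood at -1.29 for PICT minus PCT and -1.48 for OMCT minus PCT, and Slc7a11 at -1.96 and -2.86. With 3 arrays such likeness describes these samples only. In all, 153 genes were counted as lower than PCT in both PICT and OMCT, Slc7a11 among them.

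**Figure D2:**
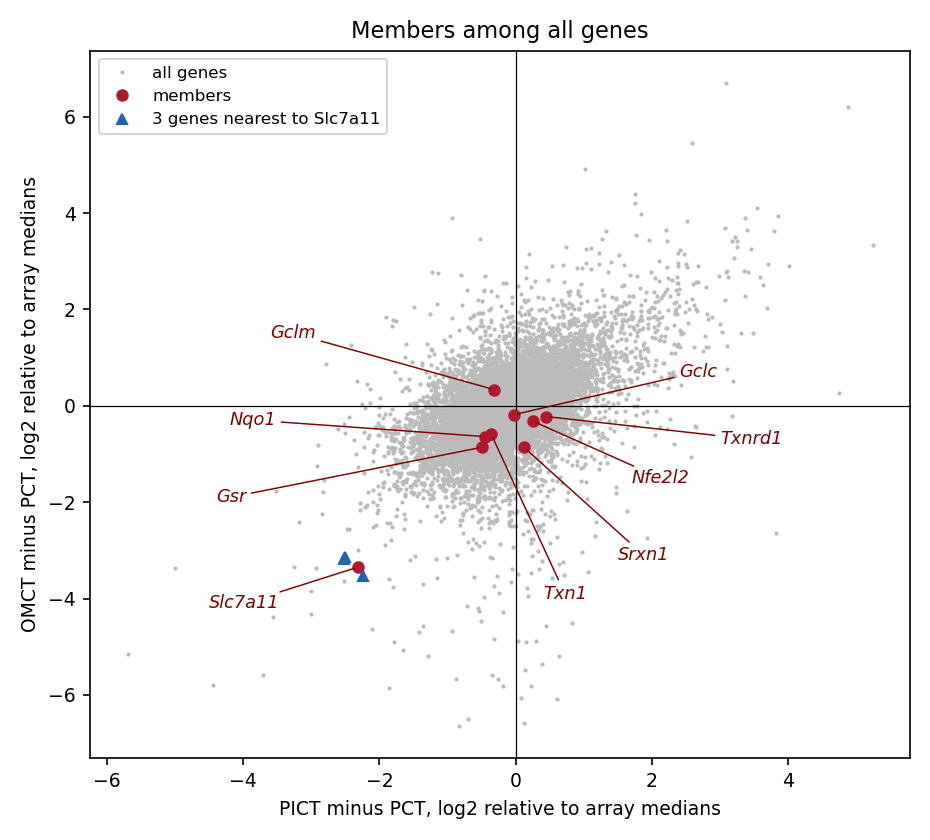
Relative log2 differences of 14217 genes, PICT minus PCT on the x axis and OMCT minus PCT on the y axis; grey points are all genes, red circles the 9 measured members and blue triangles the 3 genes nearest to Slc7a11. Slc7a11 lies apart at -2.31 and -3.35, and the other 8 members lie between -0.50 and 0.45 on the x axis and between -0.86 and 0.33 on the y axis.

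Nfe2l2 (1367826_at), the gene of Nrf2 itself, had an intensity of 1808 in PICT, 1237 in OMCT and 999 in PCT. PICT was the highest array. The relative difference was 0.56 for PICT minus OMCT, just past the yardstick, and 0.25 for PICT minus PCT, within it. OMCT minus PCT was -0.32 and turned to 0.31 as deposited, so the order of OMCT and PCT is not settled.

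Thioredoxin and its reductase differed between the tissues to unequal degrees. Txnrd1, the selenoenzyme that reduces thioredoxin with NADPH, has 2 probe sets. The brighter (1398791_at) read 217 in PICT, 135 in OMCT and 100.3 in PCT, and the dimmer (1386958_at) 94.1, 48.2 and 39.6. PICT was highest in both. PICT minus OMCT was 0.67 and 0.88 for these probe sets, and PICT minus PCT was 0.45 and 0.49. As deposited, PICT minus PCT of the brighter was 1.05, which is past the 2-fold rule. Txn1, thioredoxin itself, a small protein that reduces disulfides in other proteins, was among the brightest genes, with 7314 in PICT, 6329 in OMCT and 6176 in PCT. Its differences were 0.23 for PICT minus OMCT, -0.36 for PICT minus PCT and -0.59 for OMCT minus PCT, of which those against PCT turned to 0.24 and 0.04 as deposited. Its signal lay at percentile 99.9 of each array.

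Srxn1, sulfiredoxin, returns over-oxidised peroxiredoxins to service and has 3 probe sets. The brightest (1372510_at) read 481 in PICT, 243 in OMCT and 288 in PCT, and the next (1384331_at) 267, 105 and 123. PICT was highest in both, with PICT minus OMCT at 0.98 and 1.30. The dimmest (1381067_at) read 19.5 in PICT, 22.4 in OMCT and 13.4 in PCT, and its PICT minus OMCT was -0.12. The probe sets therefore disagree, and the size for Srxn1 rests on the brighter pair. Its 0.98 lay just short of 2-fold and was 1.01 with quantile normalization. Against PCT, the brightest gave 0.12 for PICT and -0.86 for OMCT, which were 0.72 and -0.24 as deposited.

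In glutathione synthesis the catalytic and modifier subunits of glutamate-cysteine ligase differed in direction in PICT minus OMCT. In PICT minus PCT both lay within the yardstick. Gclc, the catalytic subunit, read 203 in PICT, 184 in OMCT and 133 in PCT with the brighter probe set (1370688_at), and 126, 67.9 and 75.8 with the other (1372523_at). PICT minus OMCT was 0.16 and 0.83 for these probe sets, a gap wider than the yardstick, and PICT minus PCT was -0.03 and 0.07. Gclm, the modifier subunit, read 61.8 in PICT, 103 in OMCT and 48.9 in PCT with its only probe set (1370030_at). It was the only member highest in OMCT, with PICT minus OMCT at -0.64, OMCT minus PCT at 0.33 and PICT minus PCT at -0.31. As deposited OMCT minus PCT was 0.96, and PICT minus PCT turned to 0.29.

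Gsr and Nqo1, like all other measured members except Gclm, were lowest in OMCT relative to the array medians. Gsr, glutathione reductase, read 36.6 in PICT, 27.1 in OMCT and 33.5 in PCT (1369061_at), below the median probe set of each array, so it could not be counted by the 2-fold rule. Its relative differences were 0.36 for PICT minus OMCT, -0.50 for PICT minus PCT and -0.86 for OMCT minus PCT. Nqo1, the quinone reductase often used as a readout of Nrf2, read 386 in PICT, 343 in OMCT and 347 in PCT (1387599_a_at). Its differences were 0.18 for PICT minus OMCT, -0.46 for PICT minus PCT and -0.64 for OMCT minus PCT. The differences from PCT of Gsr, and of Nqo1 in OMCT minus PCT, exceeded the yardstick. As deposited, PICT minus PCT was 0.15 for Nqo1 and 0.10 for Gsr. OMCT minus PCT was then -0.016 for Nqo1 and -0.24 for Gsr, so all of these lay within the yardstick.

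**Figure D3:**
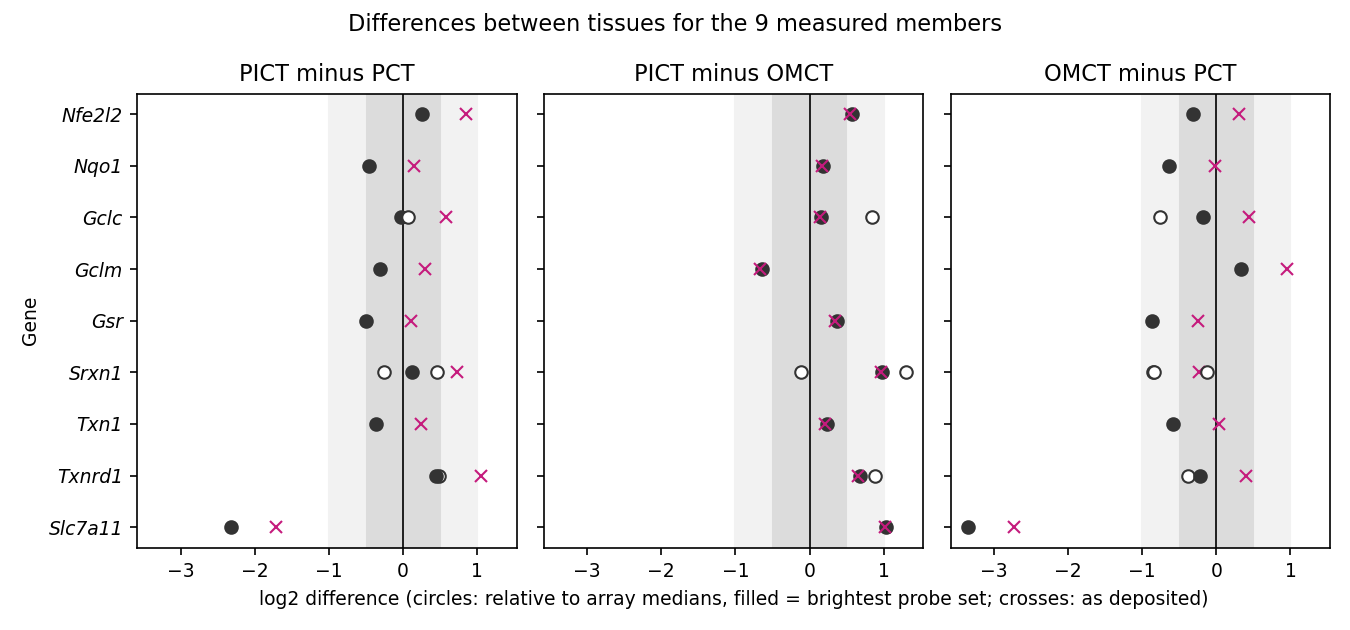
Log2 differences of the 9 measured members (rows) in the 3 comparisons (panels); filled circles are the brightest probe set relative to array medians, open circles other probe sets and crosses the as-deposited value, with a dark band of 1 SD between probe sets of a gene (0.49) and a light band up to 2-fold. Slc7a11 at -2.31, 1.03 and -3.35 is the only filled circle outside the light bands.

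PICT was set against OMCT to compare a socket with an implant and one healed without it. Here 8 of 9 measured members were higher in PICT, Gclm being the exception, and the member median was 0.36. Over all genes 46.3% were higher and the median was -0.04. By the 2-fold rule 1 member was higher, Slc7a11, and 0 were lower, where 4.15% of all genes were higher and 4.46% lower (3.98% and 4.64% as deposited, with the same member counts). Differences beyond the yardstick were those of Slc7a11, Srxn1, Txnrd1, Nfe2l2 and Gclm. The array medians of PICT and OMCT differed by only 0.02, and all 9 directions were the same as deposited. Of 11 markers of differentiated oral epithelium 10 were higher in PICT and 0 lower, with a list median of 4.79. Padi1 was at or below the negative controls in OMCT, and Ivl was so in PICT. Neutrophil markers were higher for 5 of 6 and lower for 0, with Mmp8 at or below the negative controls in OMCT and PCT. Endothelial markers were lower for 4 of 7, fibroblast markers for 3 of 8 and macrophage markers for 3 of 8, with 0 higher in each. Basal keratinocyte markers were lower for 1 of 8 and higher for 0. Bone markers were higher for 1 of 6 and lower for 2, and muscle markers higher for 1 of 8 and lower for 0. The part of all these in the member differences was not tested.

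OMCT was set against PCT to compare a healed extraction site with the tissue around a tooth. The order was the other way for 8 of 9 members, lower in OMCT, with Gclm again the exception; as deposited, 5 of 9 were higher in OMCT. Over all genes 44.1% were higher in OMCT, and 81.7% as deposited. The member median was -0.59, against -0.08 over all genes, and as deposited 0.035 against 0.54. By the 2-fold rule 1 member, Slc7a11, was lower and 0 were higher, where 4.81% of all genes were lower and 5.66% higher; as deposited the counts were the same, against 2.1% and 17.6%. Differentiated epithelium markers were lower in OMCT for 10 of 11 and macrophage markers higher for 7 of 8, with none of the macrophage markers at or below the negative controls on any array. Fibroblast markers were higher for 5 of 8 and lower for 0. Neutrophil markers were higher for 2 of 6 and lower for 2, as were bone markers. Muscle markers were lower for 1 of 8 and higher for 0. Of 7 endothelial and 8 basal keratinocyte markers 0 were higher and 0 lower. The part of all these was not tested. The comparisons share arrays, so their values are not independent.

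Few of the Keap1-Nrf2 control genes were counted by the 2-fold rule. Of 14 listed genes 12 were measured. The probe-set yardstick was exceeded by 3 of them in PICT minus PCT and by 2 in each other comparison. In PICT minus PCT 0 were higher and 1 was lower (3.98% and 3.37% of all genes). The lower gene was Gsk3b, a kinase that marks Nrf2 for breakdown, at -1.08. As deposited 0 were lower (0.9% of all genes). In the other comparisons 0 were higher and 0 lower. Of all genes 4.15% were higher and 4.46% lower in PICT minus OMCT, and 5.66% and 4.81% in OMCT minus PCT. As deposited 1 was higher in OMCT minus PCT, Sqstm1 (17.6% of all genes). Keap1 read 140 in PICT, 125 in OMCT and 107 in PCT, and its differences were 0.18 for PICT minus OMCT, -0.24 for PICT minus PCT and -0.42 for OMCT minus PCT. The list medians were 0.03, -0.12 and -0.24 in the same order.

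Most other textbook Nrf2 targets lay below PCT relative to the array medians, and Hmox1 had the highest difference in PICT minus PCT. Of 23 measured, 20 were below 0 in PICT minus PCT and 20 in OMCT minus PCT. Over all genes 40.9% and 44.1% were above 0. As deposited 12 and 16 of the 23 were above 0, against 80.2% and 81.7% of all genes. By the 2-fold rule 1 was higher in PICT than in PCT and 4 were lower (3.98% and 3.37% of all genes). As deposited 1 was higher and 0 lower (14.1% and 0.9% of all genes). The higher gene was Hmox1, heme oxygenase 1, which degrades heme and is under Nrf2 and Bach1. It read 510 in PICT, 154 in OMCT and 60.1 in PCT, with differences of 2.31 for PICT minus PCT and 1.70 for PICT minus OMCT. Its OMCT minus PCT was 0.616, under 2-fold and close to the 0.610 of Cbr1 in the same list. The highest PICT minus PCT among the 9 members was 0.45, that of Txnrd1. In PICT minus OMCT 2 were higher, Hmox1 and Me1 (malic enzyme 1, a source of NADPH) at 1.21, and 1 was lower, Akr1b8 (an aldo-keto reductase) at -1.36. In OMCT minus PCT 0 were higher and 4 lower, with Aox1 (aldehyde oxidase 1) at -1.86, which was -1.23 as deposited and -0.92, under 2-fold, with a pseudocount at the median of all intensities. As deposited, OMCT minus PCT had 2 higher and 1 lower (17.6% and 2.1% of all genes). Relative to the medians, 4.15% of all genes were higher and 4.46% lower in PICT minus OMCT. In OMCT minus PCT these shares were 5.66% and 4.81%. The list medians were -0.57 for PICT minus PCT, -0.06 for PICT minus OMCT and -0.53 for OMCT minus PCT. The transporter Abcc2 and the transferase Gsta3 were at or below the negative controls on all 3 arrays.

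Among 24 other thioredoxin, peroxiredoxin and glutaredoxin genes, 1 was higher and 0 lower in PICT minus PCT (3.98% and 3.37% of all genes). The higher gene was Prdx5, a peroxiredoxin of mitochondria and peroxisomes, at 1.08 (0.99 with a pseudocount at the 5th percentile). As deposited 6 were higher, where 14.1% of all genes were. In PICT minus OMCT 1 was higher, Sesn3 (sestrin 3, a stress-response regulator of TORC1) at 1.30, and 0 were lower; Sesn3 was 0.98 with a pseudocount at the median of all intensities and 0.70 with its dimmest probe set. In OMCT minus PCT 0 were higher and 2 lower, with Sesn3 lowest at -1.48. As deposited 5 were higher and 0 lower (17.6% and 2.1% of all genes). Relative to the medians, 4.15% of all genes were higher and 4.46% lower in PICT minus OMCT. In OMCT minus PCT these shares were 5.66% and 4.81%. Txnip, which binds and inhibits thioredoxin, read 539 in PICT, 961 in OMCT and 685 in PCT and gave the lowest difference of the list against both tissues, -0.80 for PICT minus OMCT and -0.94 for PICT minus PCT, each short of 2-fold. The list medians were -0.01 for PICT minus PCT, 0.08 for PICT minus OMCT and -0.19 for OMCT minus PCT.

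The wider glutathione and cysteine genes held larger differences than the members other than Slc7a11. Of 18 measured, 3 were higher and 2 lower in PICT minus PCT, 4 higher and 0 lower in PICT minus OMCT, and 2 higher and 4 lower in OMCT minus PCT. Over all genes the shares were 3.98% and 3.37%, 4.15% and 4.46%, and 5.66% and 4.81% in the same order. As deposited the counts were 5 and 1, 3 and 0, and 5 and 2. The shares were then 14.1% and 0.9%, 3.98% and 4.64%, and 17.6% and 2.1%. Anpep, an aminopeptidase that completes the breakdown of extracellular glutathione, read 346 in PICT, 354 in OMCT and 52.1 in PCT, with differences of 1.95 for PICT minus PCT and 1.96 for OMCT minus PCT. Ggt1, the gamma-glutamyltransferase that opens this breakdown, read 262 in PICT, 101.0 in OMCT and 212 in PCT, with 1.32 for PICT minus OMCT and -1.63 for OMCT minus PCT. Its relative Ggt5 differed by 1.05 and the family member Ggt7 by 1.004 in PICT minus PCT. In OMCT minus PCT Ggt7 differed by 1.60. With a pseudocount at the median of all intensities these 3 values were 0.68, 0.54 and 0.97, under 2-fold, and Ggt5 was also under it at 0.96 with the mean of its probe sets and 0.87 with the dimmer of them. Slc1a1, a glutamate and cysteine transporter, differed by 1.51 in PICT minus OMCT, but its dimmer probe set gave -0.037. Oplah, 5-oxoprolinase of the gamma-glutamyl cycle, differed by 1.05 in PICT minus OMCT, and by 0.81 with that pseudocount.

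Of 13 measured genes that supply NADPH, 0 were higher and 0 lower in PICT minus PCT (3.98% and 3.37% of all genes). As deposited 1 was higher (14.1% of all genes). Me1 was the 1 gene higher in PICT minus OMCT, and 0 were lower (4.15% and 4.46% of all genes). In OMCT minus PCT, Nnt, the mitochondrial transhydrogenase, was higher at 1.20 and Me1 was lower at -1.09 (5.66% and 4.81% of all genes). There Me1 was -0.47 as deposited and -0.80 with a pseudocount at the median of all intensities. As deposited 2 genes were higher and 0 lower (17.6% and 2.1% of all genes). The oxidative pentose phosphate enzyme Pgd, named here after its value was seen, read 335 in PICT, 344 in OMCT and 336 in PCT, with relative differences of -0.61 for PICT minus PCT and -0.59 for OMCT minus PCT.

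Slc7a11 is also a target of Atf4, the factor of the amino acid response, so 17 genes of that response were set beside it. In PICT minus PCT 1 was higher, Atf3 (a stress-induced factor) at 1.34, and 2 were lower (3.98% and 3.37% of all genes). As deposited 2 were higher and 0 lower (14.1% and 0.9% of all genes). In PICT minus OMCT 3 were higher: Atf3 at 2.03, Cebpb (a factor of inflammation and differentiation) at 1.38 and Trib3 (a pseudokinase induced by Atf4) at 1.27. In that comparison 1 was lower, Nupr1 (a small stress-induced chromatin protein), at -2.57. Of all genes 4.15% were higher there and 4.46% lower. In OMCT minus PCT 1 was higher, Nupr1 at 1.28, and 1 lower, Trib3 at -1.46 (-0.84 as deposited, under 2-fold). Of all genes 5.66% were higher in OMCT minus PCT and 4.81% lower. Trib3 in PICT minus OMCT rests on its brightest probe set: the mean of its probe sets gave 0.79, the dimmest 0.13, and a pseudocount at the median of all intensities 0.67. Atf4 itself, named after its value was seen, read 2065 in PICT, 1969 in OMCT and 1377 in PCT, and its relative PICT minus PCT was -0.02. The list medians were -0.20 for PICT minus PCT, 0.09 for PICT minus OMCT and -0.19 for OMCT minus PCT. Some genes stand in several lists, so the list counts are not independent. Slc3a2 is counted as lower in PICT minus PCT in the Nrf2 target, glutathione and Atf4 lists alike. Me1 stands in both the Nrf2 target and NADPH lists.

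**Figure D4:**
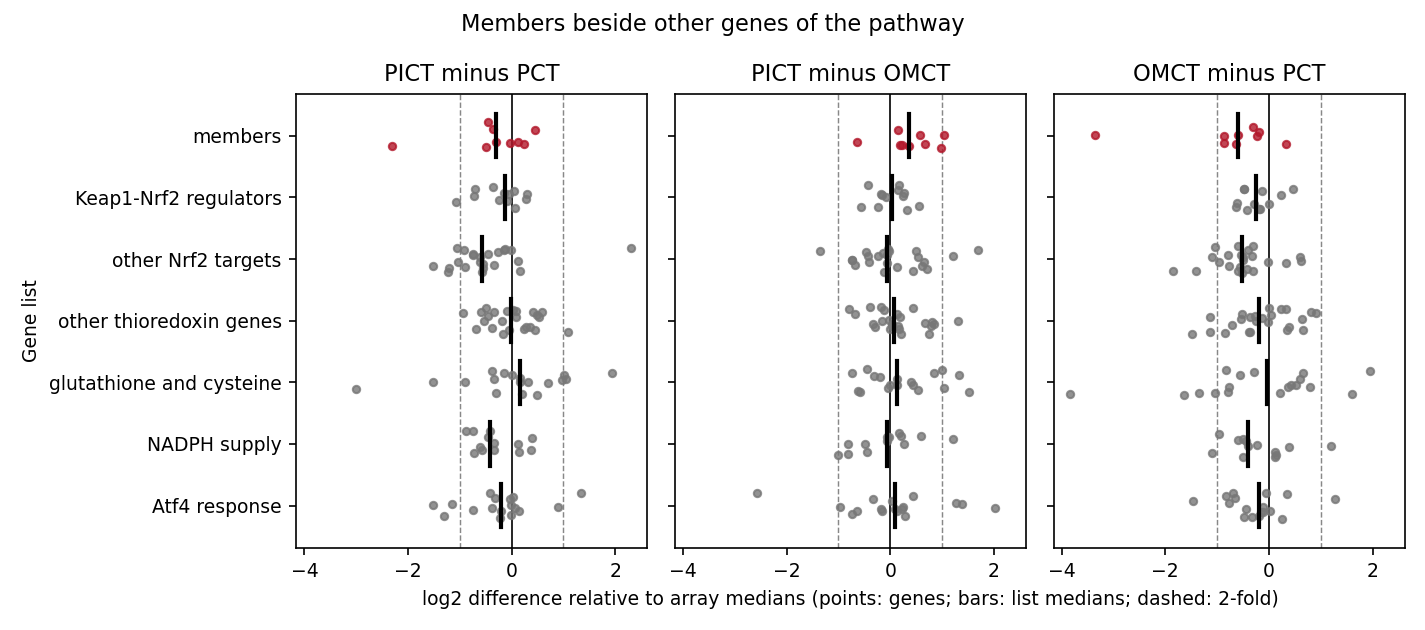
Relative log2 differences of the genes in 7 lists (rows) for the 3 comparisons (panels); points are genes, black bars list medians and dashed lines 2-fold. The member medians are -0.31, 0.36 and -0.59, and most genes of every list lie inside the dashed lines.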

How the data were processed

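Intensity per probe set was measured on 1 rat GeneChip for each of PICT, OMCT and PCT. The intensities are those deposited by the authors; RNA was amplified and biotin-labelled with a 3'IVT Express kit, per the labels' protocols. Probe summarisation and scaling were not given in the sources used here. Probe sets with 1 symbol in the platform annotation (20832 of 31099; 436 had several and 9831 none) were used, and all 13 member probe sets matched RefSeq by gene ID. For a gene with several probe sets, the one brightest on average (log2) stood for it. Scripts ran in Python 3.11.15 with numpy 2.4.6 and pandas 2.3.3 and were tested on simulated data. Promoter windows are RefSeq's, assembly GRCr8; no source used here names the build behind the probe sets.

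The members, the gene lists, the 2-fold rule and the choice to subtract array medians were made with earlier results of these data known. All members were named; from each other list, up to 4 genes per comparison with the largest differences among those counted both relative to the medians and as deposited, plus Keap1; and the 3 genes nearest to the member with the widest range. Markers served to describe the tissues and were set beside the member differences without a test. Other genes given with a value were chosen after it was seen. Alternatives covered scaling, pseudocount, probe set per gene and the brightness filter.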

Additional observations from a re-analysis of the deposited data

Results flagged for a closer look

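Signal was present in a probe set that the comparisons leave out. Probe set 1367613_at carries the symbols Prdx1l1 and Prdx1 together and so names neither gene. It read 2080 in PICT, 1776 in OMCT and 1222 in PCT, far above the highest negative control of each array (8.36, 3.60 and 5.71). Its relative log2 differences were 0.16 for PICT minus PCT, 0.25 for PICT minus OMCT and -0.09 for OMCT minus PCT, all within the yardstick of 0.49, and as deposited they were 0.76, 0.23 and 0.54.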

How the results depend on the processing

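No paired analysis was possible because each tissue has 1 array and the labels carry no replicate number, and no array could be left out. As deposited, the member median was 0.29 for PICT minus PCT and 0.035 for OMCT minus PCT, both of the other sign, and 2 members passed the 2-fold rule in PICT minus PCT. In PICT minus OMCT the count was 2 with quantile normalization, 2 with the pseudocount at the 5th percentile, 2 with hybridisation controls as the scale (added after seeing the data) and 0 with the pseudocount at the 50th percentile. Slc7a11 kept its direction under every setting run, at -2.43 to -1.71 for PICT minus PCT, 0.90 to 1.08 for PICT minus OMCT and -3.49 to -2.73 for OMCT minus PCT. Of 27 member differences, 9 had the other sign as deposited, 1 with quantile normalization, 4 with hybridisation controls and 3 with the dimmest probe set of each gene; in PICT minus OMCT only Srxn1 did, with the dimmest probe set. Slc1a1 in PICT minus OMCT was -0.037 with its dimmer probe set. The pseudocount compresses dim genes such as Gsr.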
